A study of Mus musculus with 8 samples.

Results

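The collagen chains of the mouse genome were followed in muscle stem cells (MuSCs) after dietary vitamin A (VA) depletion. The set held every gene whose Ensembl 96 symbol has the form of a collagen alpha chain, from Col1a1 to Col28a1, which gave 44 genes of the 36047 genes with estimated counts. Each gene was placed in a structural class by its symbol, and within the set no gene was picked by its level or its response to the diet. The set itself was chosen with earlier results of these data known. There were 11 fibrillar chains, 6 basement membrane chains, 6 collagen VI chains, 9 fibril-associated chains with interrupted triple helices (FACITs), 4 transmembrane chains, 2 multiplexins and 6 chains of other types.

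RNA was taken from male Pax7CreERT2-Rosa26 nTnG (Pax7-nTnG) mice aged 5 to 6 months that received a VA-free diet for 8 weeks (VA-free, n = 3 mice) or stayed on normal chow (control, n = 2 mice). Both diets carried the same alleles and tamoxifen treatment, in which Cre driven by Pax7 switches a nuclear reporter to GFP, and GFP-positive cells of the gastrocnemius and quadriceps muscles were sorted. The RNA of a mouse was split at the purification column into technical replicates A and B, of which 8 yielded libraries. On the VA-free diet these were 1B, 2A, 3A and 3B, and on the control diet both replicates of both mice, 1A, 1B, 2A, 2B. Library values below follow this order and are CPM, the counts scaled to a common library size by TMM normalization, whereas mouse values come from the summed libraries of a mouse.

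Collagens are secreted or membrane-bound proteins whose alpha chains wind around each other into a helix, as homotrimers or as fixed combinations of chains. Fibrillar collagens I, III and V form the fibers of muscle connective tissue, collagen IV forms the network of the basement membrane that encloses the myofiber and the MuSC, and collagen VI links that membrane to the fibrils. MuSCs make part of their own niche matrix: collagen V from MuSCs is known to be a target of Notch signaling and a ligand of the calcitonin receptor, and collagen VI is known to be needed for MuSC self-renewal.

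The total estimated count lay between 44831232 and 88650428 per library. MuSC markers were present in every library, with Pax7 between 99.3 and 151 CPM in the VA-free mice and between 76.2 and 79.9 CPM in the control mice, and 9 of 10 MuSC markers were higher on the VA-free diet. Their log2 fold changes ranged from 0.47 to 1.70 with a median of 0.96. The 10 markers summed to 5284, 5598 and 6030 CPM in the VA-free mice and to 2857 and 2906 CPM in the control mice. Whether this general rise had a part in the chains that rose was not tested. Lower on the VA-free diet, where 22.5% of all genes tested were lower and 18.9% higher, were 8 of 10 markers of fibro-adipogenic progenitors, 6 of 7 of tenocytes, 10 of 10 of endothelial cells, 5 of 10 of pericytes and smooth muscle, 9 of 10 of Schwann cells and 5 of 10 of myofibers, and 1 gene among these lists, Notch3, was higher. For macrophages 3 of 10 were lower and 7 were not called, close to the share over all genes. Decorin (Dcn) was between 50.8 and 89.4 CPM in the VA-free mice and between 1394 and 1463 CPM in the control mice, and tenomodulin (Tnmd) was between 0.287 and 1.23 CPM against 94.5 to 133 CPM. Control library 2A stood apart from its technical replicate 2B, also for the collagens. In such bulk samples, fewer cells of a type and less RNA per cell cannot be told apart.

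To see how much of the transcriptome was collagen RNA, the estimated counts of the 44 genes were summed. Collagen genes took 2.04%, 2.02% and 2.03% of all gene counts in VA-free mice 1, 2 and 3, and 0.86% and 0.709% in control mice 1 and 2. The shares did not overlap between the diets. By library the share was 2.04%, 2.02%, 2.04% and 2.01% on the VA-free diet, and 0.709%, 1.04%, 0.23% and 1.19% on the control diet. The VA-free libraries were thus nearly equal, while control library 2A held less collagen RNA than any other library, including its technical replicate. Fibrillar chains made up most of the sum, with 1.52% to 1.56% of gene counts in the VA-free mice against 0.532% to 0.671% in the control mice. Col3a1 alone supplied 1.1% to 1.17% and 0.376% to 0.463% of gene counts, and the other 10 fibrillar chains together 0.376% to 0.424% and 0.156% to 0.208%. Basement membrane chains took 0.271% to 0.295% against 0.0711% to 0.073%, and collagen VI 0.116% to 0.141% against 0.06% to 0.0661%.

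**Figure D1:**
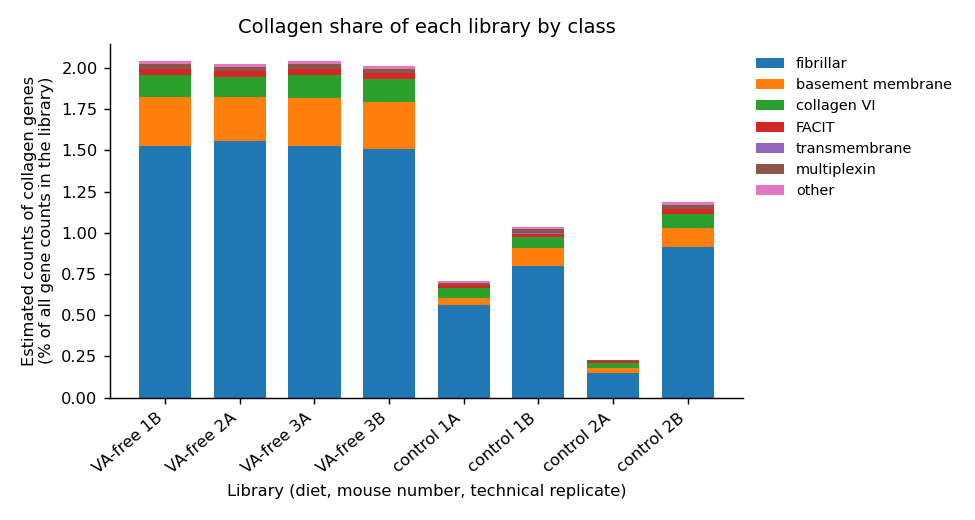
Share of all gene counts held by the 44 collagen genes in each library, as bars stacked by structural class, in percent. The 4 VA-free libraries stand between 2.01% and 2.04%, and the control libraries range from 0.23% in 2A to 1.19% in 2B.

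The diets were then compared for every gene with edgeR's quasi-likelihood test on the 5 mice (Benjamini-Hochberg adjustment over all 17997 genes that passed the filter on low counts, threshold 0.05). Of the 44 chains 42 were tested, and the VA-free diet had 19 with higher levels, 10 with lower levels and 13 that were not called. Over all genes tested, 41.4% were called, 18.9% as higher and 22.5% as lower, against 45.24% of the tested chains called higher and 23.81% called lower. VA-free and control mice occupied separate ranges for 32 of the 42 chains, as they did for 63.3% of all genes tested. The median log2 fold change (VA-free over control) was 0.41 over the chains and 0.00296 over all genes tested. Split by level, of the 21 chains that averaged at least 10 CPM, 15 were higher and 3 lower, where 30.5% of all genes at that level were higher and 26.3% lower. Of the 21 tested chains under 10 CPM, 4 were higher and 7 lower, where 5.77% of all genes at that level were higher and 18.3% lower. Leaving out control library 2B, so that control mouse 2 was represented by 2A alone, left 10 chains higher and 1 lower, whereas 16 were higher and 12 lower without 2A. Calls over all genes also became fewer without 2B, at 9.08% higher and 16.1% lower, and were 18.0% and 21.6% without 2A.

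**Figure D2:**
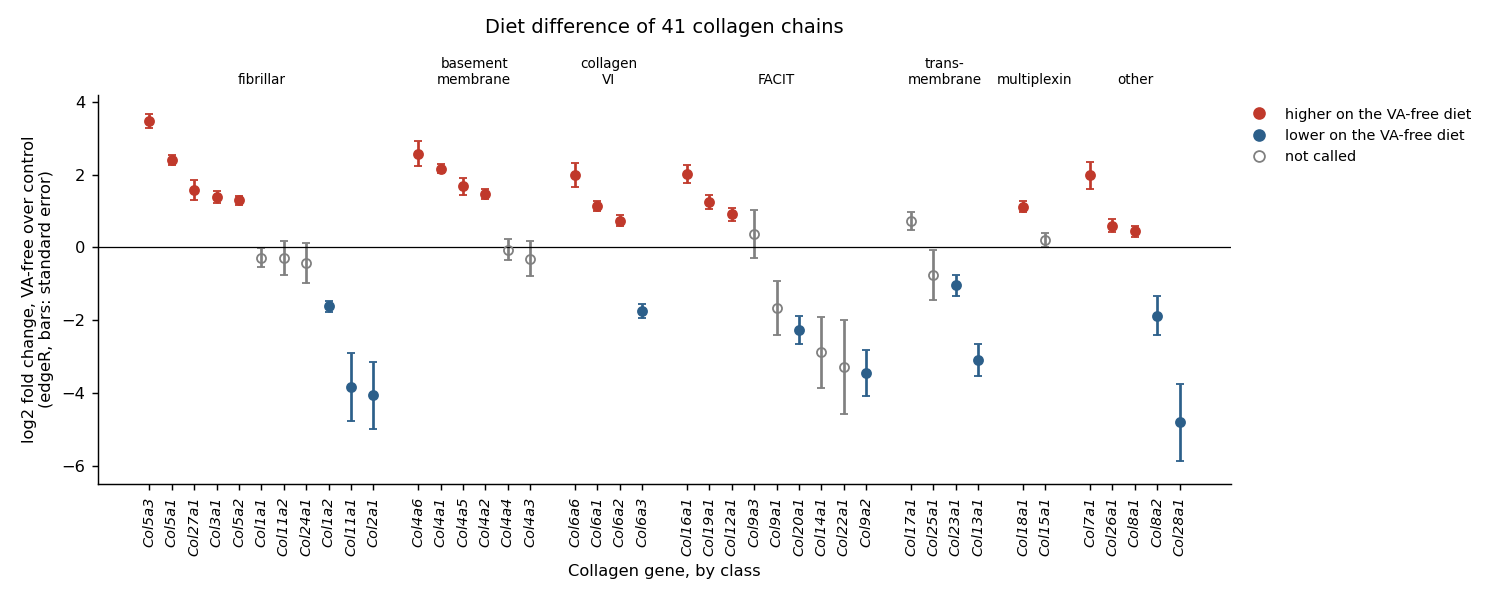
Log2 fold change (VA-free over control, 3 against 2 mice, edgeR) of 41 collagen chains by class, with bars for the standard error; filled points passed an adjusted p of 0.05. Col6a4 is left out because all control libraries had 0 counts. Members of most classes lie on both sides of 0, and the 4 called basement membrane chains all lie above it.

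Among the fibrillar chains, all 3 collagen V genes rose and Col3a1 rose, whereas Col1a2 fell and Col1a1 was not called. Of the 11 chains 5 were higher, 3 lower and 3 not called, with a median log2 fold change of -0.28, against 0.00296 over all genes. Over all genes tested, 18.9% were higher and 22.5% lower. The largest rise was that of Col5a3 (chr9:20770050-20815067, minus strand, GRCm38), a chain of the collagen V found in muscle and fat. Its level was 1880, 1987, 1880 and 1884 CPM in the VA-free libraries and 91.9, 317, 63.8 and 227 CPM in the control libraries. Every VA-free library stood above every control library. The mice gave 1940 ± 45.3 CPM (SD, n = 3) against 174 ± 41.4 CPM (SD, n = 2), an 11.1-fold rise (log2 fold change 3.48, standard error 0.19, adjusted p = 0.000223). Col5a1 (chr2:27886425-28039514, plus strand), which encodes the chain found in most collagen V molecules, was at 551, 504, 522 and 523 CPM on the VA-free diet and at 72.0, 106, 76.2 and 149 CPM on the control diet, again without overlap (log2 fold change 2.40, standard error 0.15, adjusted p = 0.000226). Its partner Col5a2 (chr1:45374321-45503282, minus strand) was at 482, 516, 562 and 551 CPM against 187, 236, 144 and 282 CPM (log2 fold change 1.30, standard error 0.12, adjusted p = 0.000451). The 3 collagen V chains kept these calls under each of the 24 alternatives, and the log2 fold change of Col5a2 fell to 0.63 when the trend with transcript length was removed.

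Of the collagen V chains Col5a3 had the largest fold, a difference between chains that was not tested. Per transcript length, as TPM (transcript levels scaled by length to a common total), the ratio of Col5a3 to Col5a1 was 3.88, 5.17 and 4.67 in the VA-free mice and 1.84 and 0.933 in the control mice. In the VA-free mice Col5a3 was thus the most abundant of the 3 chains, at 580 ± 21.2 TPM (SD, n = 3), with Col5a2 at 146 ± 5.68 and Col5a1 at 129 ± 21.0 TPM, which differed by less than their spread. In the control mice the summed TPM lay close together, at 39.7 ± 8.46 TPM (SD, n = 2) for Col5a3, 44.4 ± 1.11 for Col5a2 and 30.5 ± 8.00 for Col5a1. These sums hold all annotated transcripts. For Col5a1 they include a partial one of 1049 nt, at 12.8, 10.9, 23.4 and 16.6 TPM in the control libraries. The longest Col5a1 transcript was at 9.96, 16.0, 8.07 and 24.2 TPM there, and that of Col5a3 at 20.2, 71.2, 12.5 and 54.8 TPM. In the VA-free libraries they were at 108 to 122 and 554 to 591.5 TPM, and the partial one at 2.32 to 30.5 TPM. The part of the partial one in the ratios was not tested.

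Col3a1 (chr1:45311538-45349706, plus strand), the only chain of collagen III, was the most abundant chain on both diets. It was at 10351, 11620, 11245 and 11325 CPM in the VA-free libraries and at 3941, 5552, 1024 and 6434 CPM in the control libraries. Although the groups did not overlap, the control libraries spread far more widely than the VA-free ones, with 2A lowest. The VA-free mice averaged 11222 ± 558 CPM (SD, n = 3), which was 2.61-fold above the 4304 ± 777 CPM (SD, n = 2) of the control mice (log2 fold change 1.38, standard error 0.16, adjusted p = 0.000853). Without control 2B the log2 fold change was 1.92 and missed the threshold (adjusted p = 0.0833), and without control 2A it was 0.99 (adjusted p = 0.00268). The fifth fibrillar chain called higher, Col27a1, was far less abundant, with 4.49 to 6.02 CPM in the VA-free libraries and 1.37 to 2.30 CPM in the control libraries (log2 fold change 1.58, standard error 0.26, adjusted p = 0.00347).

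The collagen I chains, which join in a fixed ratio in the main fibril-forming collagen of tendon, bone and muscle fascia, differed in their calls, and the difference between them was not tested. Col1a2 (chr6:4504814-4541544, plus strand) was at 178, 148, 144 and 148 CPM on the VA-free diet and at 496, 556, 198 and 673 CPM on the control diet, a 3.06-fold fall without overlap (log2 fold change -1.61, standard error 0.15, adjusted p = 0.00048). The call was lost without control 2B (log2 fold change -1.23, adjusted p = 0.0792). Col1a1 (chr11:94936224-94953042, plus strand) was at 879, 624, 645 and 582 CPM against 872, 1279, 88.0 and 1173 CPM, so the groups overlapped and the comparison was not called (log2 fold change -0.28, standard error 0.27, adjusted p = 0.443). Without control 2A the log2 fold change of Col1a1 was -0.67 and passed the threshold (adjusted p = 0.022), and without 2B it was 0.25 (adjusted p = 0.86). With all libraries and the length trend removed, Col1a1 was also called lower (log2 fold change -0.83, adjusted p = 0.0425). The TPM ratio of Col1a1 to Col1a2 was 5.80, 4.91 and 4.87 in the VA-free mice and 2.25 and 1.65 in the control mice. The ratio of Col3a1 to Col1a1 was 13.4, 20.9 and 21.5 in the VA-free mice and 5.52 and 7.36 in the control mice.

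The remaining fibrillar chains are known from cartilage and developing bone and were rare here. Col2a1, the main chain of cartilage collagen, was between 0 and 0.251 CPM in the VA-free libraries and between 0.665 and 2.40 CPM in the control libraries (log2 fold change -4.06, standard error 0.92, adjusted p = 0.012). Its companion Col11a1 was at 2.45, 0.179, 0.264 and 0.483 CPM against 19.3, 14.4, 9.73 and 15.6 CPM (log2 fold change -3.84, standard error 0.93, adjusted p = 0.0157). For both, every control library stood above every VA-free library, and both lost the call without control 2B (log2 fold change -3.84, adjusted p = 0.0558 for Col2a1 and -3.75, adjusted p = 0.0557 for Col11a1). Col11a2 (log2 fold change -0.29, adjusted p = 0.663) and Col24a1 (-0.42, adjusted p = 0.589) were near 1 CPM on both diets and were not called. The tenocyte markers fell alongside these cartilage and tendon chains, with a summed level of 40.1 to 67.5 CPM in the VA-free libraries and 683 to 1199 CPM in the control libraries, Kera alone being at 0 in a mouse (VA-free 2). Whether RNA of such cells in the sort had a part in the lower chains was not tested.

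The bases just before the annotated start of the 3 strongest or most abundant fibrillar chains that rose are shown, since they are the part of the promoter nearest to the start of genes that moved together. They come from RefSeq's promoter windows of GRCm38.p6, which held 38 windows for 35 of the 44 genes, and are written in the direction of transcription. Capitals mark matches on either strand. The TATA box was searched as TATAAA. For the CAAT box the letters were CCAAT. Finally, the GC box was searched as GGGCGG. The windows are chr9:20815068-20815317 (minus strand) for Col5a3, chr2:27886175-27886424 (plus strand) for Col5a1 and chr1:45311288-45311537 (plus strand) for Col3a1.
Col5a3: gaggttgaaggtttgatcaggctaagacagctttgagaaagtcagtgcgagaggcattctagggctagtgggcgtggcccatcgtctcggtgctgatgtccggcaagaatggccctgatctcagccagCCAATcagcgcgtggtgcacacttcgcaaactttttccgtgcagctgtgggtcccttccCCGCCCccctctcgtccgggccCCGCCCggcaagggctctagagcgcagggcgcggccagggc
Col5a1: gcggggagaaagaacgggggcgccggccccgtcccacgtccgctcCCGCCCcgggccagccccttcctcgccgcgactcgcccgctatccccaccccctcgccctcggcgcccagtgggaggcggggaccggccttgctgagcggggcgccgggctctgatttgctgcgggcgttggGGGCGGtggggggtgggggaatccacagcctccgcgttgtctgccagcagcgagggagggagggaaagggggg
Col3a1: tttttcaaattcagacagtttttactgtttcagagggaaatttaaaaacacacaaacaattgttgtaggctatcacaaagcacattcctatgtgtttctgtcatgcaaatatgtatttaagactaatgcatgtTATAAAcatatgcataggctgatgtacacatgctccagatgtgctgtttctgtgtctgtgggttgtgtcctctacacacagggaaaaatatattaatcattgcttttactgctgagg
Col5a3 and Col5a1 each held GC boxes, Col5a3 held a CAAT box, and Col3a1 held a TATA box match 117 bases upstream of the start with no GC box. Over whole windows of 300 bases, GC boxes were found in 23 of the 38 collagen windows (60.53%) and in 35.66% of all 32851 windows, CAAT boxes in 13 (34.21%) against 37.41%, and TATA boxes in 5 (13.16%) against 13.62%. The nuclear receptor half-site AGGTCA, the core of the elements bound by retinoic acid receptors, was in 8 of the 38 collagen windows (21.05%) and in 16.26% of all windows, and in none of the 3 stretches printed here. None of the 4 motifs contains another, and a match is a description of the sequence only.

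For the basement membrane chains, 4 of 6 were higher and none lower, with a median log2 fold change of 1.57. The shares over all genes tested were 18.9% higher and 22.5% lower. Col4a1 (chr8:11198423-11312826, minus strand) and Col4a2 (chr8:11312805-11449287, plus strand) encode the chains of the common collagen IV network, and their start sites lay 21 bases apart on opposite strands. Col4a1 was at 1991, 1928, 2064 and 2076 CPM in the VA-free libraries and at 255, 655, 196 and 702 CPM in the control libraries. The mice gave 2022 ± 82.7 CPM (SD, n = 3) against 452 ± 6.07 CPM (SD, n = 2) for control mice, a 4.47-fold rise (log2 fold change 2.16, standard error 0.12, adjusted p = 0.000223). The 2 control mice were nearly equal, yet the technical replicates of each differed, 1B being 2.57 times 1A and 2B being 3.59 times 2A, so the SD between the control mice is smaller than the spread between their libraries. Col4a2 was at 738, 690, 775 and 715 CPM against 178, 395, 135 and 355 CPM (log2 fold change 1.46, standard error 0.13, adjusted p = 0.00043). Both calls held under each alternative, with Col4a2 at 0.81 once the length trend was removed. Col4a1 had the larger fold of the pair, and the TPM ratio of Col4a1 to Col4a2 was 4.4, 4.42 and 4.51 in the VA-free mice and 2.83 and 3.34 in the control mice.

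The X-linked pair Col4a5 and Col4a6, which form a minor collagen IV network and start 1343 bases apart on opposite strands, rose as well. Col4a5 was at 34.5, 56.0, 42.1 and 32.4 CPM against 8.59, 19.1, 2.12 and 23.3 CPM (log2 fold change 1.68, standard error 0.23, adjusted p = 0.00169). Col4a6 was at 5.72, 8.82, 4.37 and 5.53 CPM against 0.655, 1.60, 0.0624 and 2.04 CPM (log2 fold change 2.57, standard error 0.34, adjusted p = 0.00148). The groups did not overlap for either gene, and 2A was again the lowest library. Without control 2B the folds were larger and neither passed the threshold (log2 fold change 2.40, adjusted p = 0.0773 for Col4a5 and 3.39, adjusted p = 0.07 for Col4a6). Col4a5 remained at 0.0115, 0.0193 and 0.0119 of the level of Col4a1 per length in the VA-free mice and at 0.0218 and 0.0182 in the control mice. The pair Col4a3 and Col4a4, known from the kidney glomerulus, lay between 0.972 and 3.65 CPM in all libraries and was not called (log2 fold change -0.31, adjusted p = 0.65, and -0.06, adjusted p = 0.899).

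In collagen VI the chains of a single heterotrimer moved in opposite directions. Col6a1 (chr10:76708792-76726168, minus strand) was at 1014, 919, 1080 and 1123 CPM on the VA-free diet and at 456, 500, 289 and 588 CPM on the control diet, a 2.22-fold rise (log2 fold change 1.15, standard error 0.14, adjusted p = 0.00106). Its neighbor Col6a2 (chr10:76595762-76623630, minus strand) was at 250, 212, 274 and 281 CPM against 136, 186, 61.3 and 208 CPM (log2 fold change 0.74, standard error 0.16, adjusted p = 0.0108). Col6a3 (chr1:90765923-90843971, minus strand), the long chain that completes the usual trimer, was at 7.23, 10.4, 11.7 and 9.66 CPM against 27.9, 38.1, 14.8 and 46.1 CPM (log2 fold change -1.75, standard error 0.20, adjusted p = 0.000853). Neither direction came with an overlap between the diets. The Col6a2 rise lost its call without control 2A (log2 fold change 0.42, adjusted p = 0.0767) and without 2B (1.12, adjusted p = 0.109), and the Col6a3 fall missed it without 2B (-1.37, adjusted p = 0.0544). Col6a2 lost its call under 6 of 24 alternatives, with the length trend removed among them (0.22, adjusted p = 0.311). Col6a1 kept its call under each alternative, at 0.62 with the length trend removed.

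Per length, Col6a1 exceeded Col6a3 by 278, 133 and 171 times in the VA-free mice and by 15.6 and 18.5 times in the control mice, while the ratio of Col6a1 to Col6a2 moved much less, from 2.91 and 3.11 in the control mice to 3.98, 4.27 and 3.89 in the VA-free mice. Of the chains that can take the place of Col6a3 in the trimer, Col6a6 rose, at 7.18, 8.75, 5.80 and 4.04 CPM against 2.11, 0.862, 0.0208 and 3.77 CPM (log2 fold change 1.99, standard error 0.33, adjusted p = 0.00339), a call that was lost without control 2B (log2 fold change 3.07, adjusted p = 0.137). Col6a4 had 40 counts in VA-free 1 and 7 in VA-free 2 and 0 in VA-free 3 and in every control library, at least 13.3-fold more over the diet group than a floor of 3 counts over the control group, and was not called (adjusted p = 0.0865). With Col6a4 at that bound, the median of the class was still 1.15. Col6a5 had counts in a single library of each diet and was not tested. The markers of fibro-adipogenic progenitors, which are known for high collagen I and VI, summed to 5577 to 6862 CPM in the VA-free libraries and to 7441 to 7805 CPM in the control libraries, with 8 of 10 lower, none at 0, and Gsn, the most abundant, not called. Their part in the lower Col6a3 and Col1a2 was not tested.

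**Figure D3:**
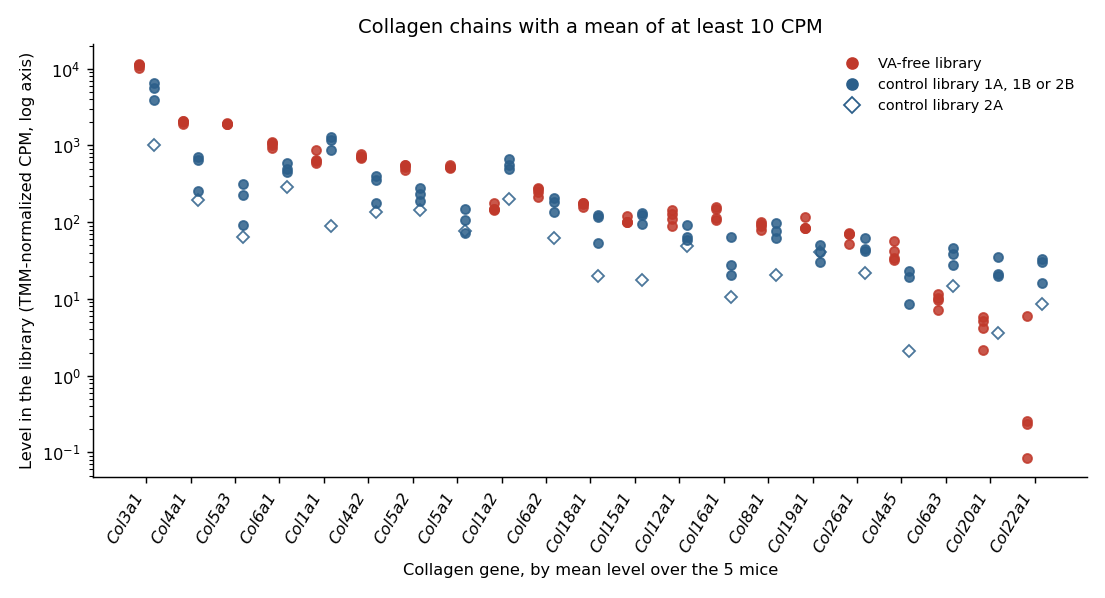
Level in each library (TMM-normalized CPM, log axis) of the 21 collagen chains with a mean of at least 10 CPM, ordered by that mean; red, VA-free libraries, and blue, control libraries, with 2A as an open diamond. Control 2A lies below its technical replicate 2B for each chain, and the VA-free libraries lie above all control libraries for genes such as Col5a3 and Col4a1.

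FACITs sit on the surface of fibrils and tie them to the surrounding matrix. Of 9 chains, 3 were higher, 2 lower and 4 not called, with a median log2 fold change of -1.66, and the 3 that rose were the 3 most abundant FACITs. The share called lower, 22.22%, was close to the 22.5% of all genes tested, of which 18.9% were higher. At a mean of at least 10 CPM, where those 3 lay, 30.5% of all genes were higher. Col16a1, which is found near basement membranes, was at 106, 114, 157 and 151 CPM against 20.7, 27.7, 10.6 and 64.2 CPM (log2 fold change 2.02, standard error 0.24, adjusted p = 0.00103). Col19a1, a FACIT of embryonic muscle, was at 84.6, 116, 83.6 and 84.7 CPM against 40.5, 29.9, 40.8 and 50.3 CPM (log2 fold change 1.25, standard error 0.18, adjusted p = 0.00206). Both kept the call under each alternative. Col12a1, which binds collagen I fibrils under load, was at 143, 127, 109 and 88.0 CPM against 58.9, 63.8, 49.4 and 91.3 CPM (log2 fold change 0.91, standard error 0.18, adjusted p = 0.00672), with VA-free 3B below control 2B. With an offset for the length of the transcripts in use, its gene-level rise was not seen (log2 fold change -0.05, adjusted p = 0.785). Its longest coding transcript, of 11511 nt, was nonetheless at 20.3, 16.9, 14.6 and 11.4 TPM against 3.03, 4.57, 2.06 and 7.61 TPM. Shorter annotated transcripts went both ways. That of 3351 nt was at 1.92 to 3.97 against 1.30 to 1.67 TPM, and that of 1784 nt at 1.61 to 5.07 against 3.91 to 6.67 TPM. How reads were divided among them was not tested.

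On the lower side, Col20a1 was at 2.14, 5.89, 5.20 and 4.23 CPM against 19.8, 21.4, 3.55 and 35.5 CPM (log2 fold change -2.26, standard error 0.38, adjusted p = 0.00359), and control 2A fell among the VA-free libraries. The fall of Col9a2, a cartilage FACIT, was from 0.416 to 4.08 CPM in the control libraries down to 0 to 0.32 CPM in the VA-free libraries (log2 fold change -3.45, standard error 0.62, adjusted p = 0.00476). Neither call held without control 2B (log2 fold change -1.55, adjusted p = 0.195 for Col20a1 and -2.73, adjusted p = 0.0881 for Col9a2). Col22a1, a chain of the myotendinous junction, was at 6.06, 0.237, 0.253 and 0.0857 CPM against 16.0, 32.8, 8.62 and 29.9 CPM. All VA-free libraries lay below all control libraries, but VA-free mouse 1 lay far above the other 2 VA-free mice, and the log2 fold change of -3.29 (standard error 1.29) missed the threshold (adjusted p = 0.0826). It passed without VA-free mouse 1. Col14a1, a fibroblast FACIT, also had no overlap, at 0.0533, 0.501, 1.56 and 1.25 CPM against 3.12, 8.96, 1.79 and 5.66 CPM (log2 fold change -2.88, standard error 0.98, adjusted p = 0.0534), and passed the threshold in 15 of 24 alternatives. Col9a1 (log2 fold change -1.66, adjusted p = 0.121) and Col9a3 (0.38, adjusted p = 0.686) overlapped between the diets.

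The transmembrane collagens stay anchored in the plasma membrane, and 2 of the 4 were lower and 2 not called, where 22.5% of all genes tested were lower. Col13a1, which acts at the neuromuscular junction, was at 0.309, 0.555, 0.352 and 0.302 CPM against 5.20, 2.61, 1.79 and 3.49 CPM (log2 fold change -3.08, standard error 0.44, adjusted p = 0.00185), and was the single lower chain that kept its call under each alternative. Col23a1 was at 3.56, 2.92, 2.38 and 3.40 CPM against 6.89, 8.46, 3.04 and 7.48 CPM (log2 fold change -1.04, standard error 0.28, adjusted p = 0.022), with control 2A within the range of the VA-free libraries, and lost its call under 9 of 24 alternatives, without control 2B among them (log2 fold change -0.80, adjusted p = 0.238). Col17a1, a hemidesmosome protein, was at 8.09, 10.6, 8.28 and 6.46 CPM against 7.86, 3.65, 1.93 and 7.16 CPM and was not called (log2 fold change 0.72, standard error 0.25, adjusted p = 0.0587), although its mice did not overlap and it was called higher under 8 of 24 alternatives. Col25a1 stayed under 1 CPM in each library (log2 fold change -0.75, adjusted p = 0.434). Summed Schwann cell markers were between 863 and 958 CPM in the VA-free libraries and between 1432 and 1720 CPM in the control libraries, with none at 0, and their part in the lower Col13a1 was not tested.

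The multiplexins are basement membrane proteoglycans whose C-terminal fragments include endostatin. Col18a1 was at 158, 171, 179 and 175 CPM against 53.4, 123, 19.7 and 115 CPM (log2 fold change 1.13, standard error 0.15, adjusted p = 0.0014). Its log2 fold change was 0.74 without control 2A (adjusted p = 0.00591), and 1.64 without 2B, where it missed the threshold (adjusted p = 0.103). Col15a1, by contrast, was at 119, 100, 101 and 100 CPM against 94.0, 123, 17.8 and 133 CPM and was not called (log2 fold change 0.21, standard error 0.18, adjusted p = 0.42). Without control 2A its log2 fold change was -0.18 (adjusted p = 0.337).

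Of the 6 chains of other types, Col7a1, the anchoring fibril collagen, was at 2.73, 2.97, 5.53 and 2.72 CPM against 0.714, 0.612, 1.5 and 0.557 CPM (log2 fold change 1.99, standard error 0.37, adjusted p = 0.00556), and was lost without control 2B (log2 fold change 1.57, adjusted p = 0.0683). It also missed the threshold with an offset for transcript length (log2 fold change 0.85, adjusted p = 0.134). The short-chain collagen Col8a1 was at 89.6, 77.9, 99.2 and 94.5 CPM against 62.8, 77.8, 20.8 and 96.6 CPM and passed the threshold narrowly (log2 fold change 0.45, standard error 0.15, adjusted p = 0.04997), and its partner Col8a2 was at 1.32, 0.394, 1.85 and 1.05 CPM against 3.61, 4.97, 0.104 and 6.75 CPM (log2 fold change -1.87, standard error 0.54, adjusted p = 0.0294). Libraries of the diets overlapped for both, and both calls were lost under several alternatives (15 of 24 for Col8a1 and 8 of 24 for Col8a2), without control 2B in each case (log2 fold change 0.92, adjusted p = 0.233, and -1.09, adjusted p = 0.571). Col8a1 was at 0.08 without control 2A (adjusted p = 0.74). The TPM ratio of Col8a1 to Col8a2 was 68.5, 200 and 63.3 in the VA-free mice and 14.7 and 14.8 in the control mice. Col26a1 was at 73.0, 51.8, 69.9 and 70.5 CPM against 42.3, 45.1, 21.9 and 62.8 CPM (log2 fold change 0.60, standard error 0.18, adjusted p = 0.0323), a call lost under 11 of 24 alternatives, without control 2A (log2 fold change 0.29, adjusted p = 0.307) and without 2B (0.95, adjusted p = 0.102) among them. Col28a1, known from Schwann cells of peripheral nerve, was at 0.096, 0.698, 0 and 0.0403 CPM against 8.33, 7.62, 2.77 and 9.0 CPM (log2 fold change -4.80, standard error 1.07, adjusted p = 0.011), the largest fall among the chains, which missed the threshold without control 2B (log2 fold change -4.41, adjusted p = 0.0608). Col10a1, the collagen of hypertrophic cartilage, had counts in 2 VA-free libraries only and was not tested.

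Ordered per length, the leading chains of the VA-free mice were Col3a1 at 5164 ± 110 TPM (SD, n = 3), Col4a1 at 938 ± 43.9, Col5a3 at 580 ± 21.2, Col6a1 at 460 ± 41.9, Col1a1 at 290 ± 74.4 and Col4a2 at 211 ± 10.2 TPM. Each of these steps exceeded the SDs of its neighbors, but the last, between Col1a1 and Col4a2, was only slightly larger than the SD of Col1a1. In the control mice the order was Col3a1 at 1544 ± 178 TPM (SD, n = 2), Col1a1 at 248 ± 77.9, Col4a1 at 176 ± 5.28, Col6a1 at 154 ± 7.13 and Col1a2 at 126 ± 12.9 TPM, in which Col1a1 and Col4a1 did not differ beyond the spread of Col1a1. Col5a3 stood at 39.7 ± 8.46 TPM there, below Col4a2 at 57.2 ± 4.94 and Col6a2 at 51.4 ± 4.71 TPM.

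Because collagen transcripts are long, the values were set against transcript length and against the technical replicates. The length of a gene was the mean over its annotated transcripts, weighted by their TPM, so partial transcripts shorten it. By this measure the median of the tested chains was 4378 nt and that of all genes tested 2122 nt. Over all genes, longer transcripts were higher on the VA-free diet: the median log2 fold change was -0.74 for genes under 1000 nt and 0.60 for genes of 4000 to under 5000 nt, in which 42.88% were higher and 9.06% lower. Of the 15 chains of 4000 to under 5000 nt, 6 were higher and 4 lower, with a median of -0.28 over members that went both ways. Of the 8 chains of 6000 nt or more by this measure, 6 were higher and none lower, with a median of 2.2. All genes of that length had a median of 0.57, with 38.47% higher and 6.72% lower. Some chains in shorter ranges have longer full transcripts. Col6a3 and Col11a1, both called lower, were at 5267 and 4561 nt, with longest transcripts of 10106 and 7667 nt. Col4a1 and Col12a1, both called higher, were at 3910 and 5568 nt, with longest transcripts of 6615 and 11511 nt. Across the 42 chains the Spearman correlation of log2 fold change and length was 0.375, and across all genes it was 0.378, given as descriptions only since the chains share libraries and genes are not independent replicates. With the length trend of each mouse removed, 15 chains were higher and 13 lower, where 13.19% of all genes were higher and 17.63% lower. The median log2 fold change was then 0.046 over the chains and -0.024 over all genes.

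**Figure D4:**
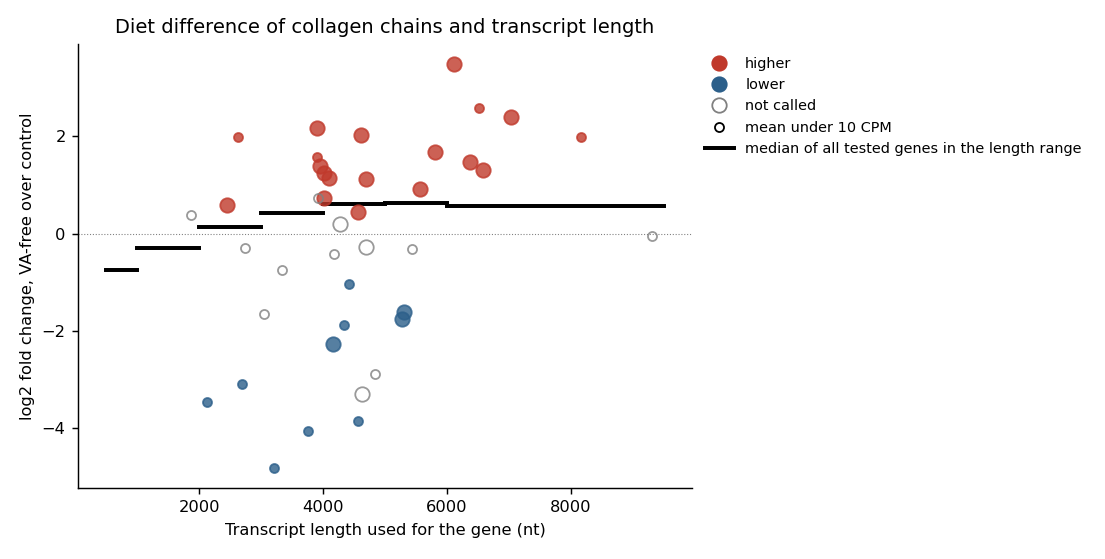
Log2 fold change (VA-free over control) of 41 collagen chains against transcript length in nt, with large points for a mean of at least 10 CPM. Length is the TPM-weighted mean over the annotated transcripts of a gene. Black lines give the median of all tested genes in each length range, the first drawn from 500 nt. The line rises from -0.74 under 1000 nt to 0.60 at 4000 to under 5000 nt, and chains of that range lie on both sides of it.

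The technical replicates of control mouse 2 differed in collagen RNA. For the 21 chains with a mean of at least 10 CPM, the level in 2B was 1.23 to 13.3 times that in 2A, with a median of 3.46, and the largest ratio was that of Col1a1. The ratio of 1B to 1A had a median of 1.36 (range 0.738 to 3.44), and that of VA-free 3B to 3A a median of 0.981 (range 0.338 to 1.04). Over all genes tested, the median log2 ratio of 2A to 2B was -0.03, and in genes of 4000 to under 5000 nt it was -0.43, against -1.75 for chains of that length. Each pair comes from 1 animal, whose RNA was split before purification. For Col3a1 the ratio of 2B to 2A was 6.28, larger than the 2.61-fold difference between the diets, whereas for Col5a3 it was 3.55 against 11.1-fold.

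Short annotated transcripts that cover parts of Col3a1 and Col4a1 differed in how far 2A lay from the other control libraries. Kallisto divides reads among overlapping transcripts, so these TPM values are estimates of where reads fell rather than of separate RNAs. For Col3a1, a 431-nt transcript spanning 34% to 41% of the longest coding transcript was at 790 to 894 TPM in the VA-free libraries and at 169.9, 290, 0.173 and 347 TPM in the control libraries. One of 583 nt spanning 39% to 51% was at 621 to 735 TPM against 127, 222, 0 and 224 TPM. One of 737 nt that reaches from 49% to 78% went the other way, at 69.2 to 134 TPM on the VA-free diet and 172, 121, 309.9 and 105 TPM on the control diet, highest in 2A. For Col4a1, a 618-nt transcript spanning 15% to 50% was at 222 to 238 TPM against 0, 33.9, 0 and 22.2 TPM, and one of 1170 nt spanning 63% to 83% was at 159 to 210 TPM against 31.1, 58.9, 55.0 and 50.5 TPM. A Col4a1 transcript of 545 nt spanning 5% to 12% was at 10.9 to 33.1 TPM against 31.0, 20.9, 0 and 61.9 TPM, so the diets overlapped there.

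**Figure D5:**
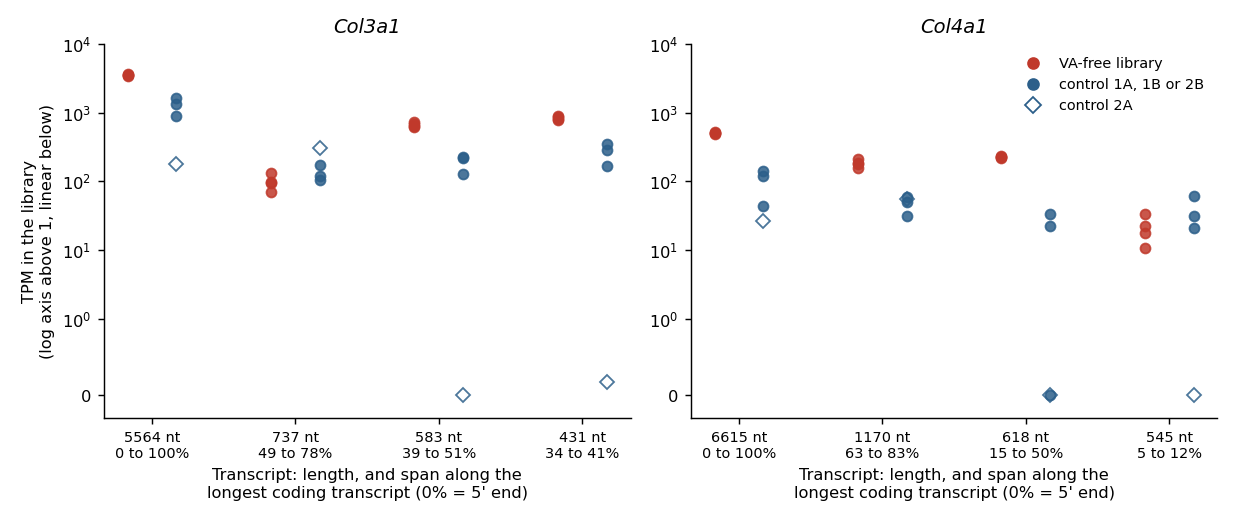
TPM in each library of annotated transcripts of Col3a1 and Col4a1 that reached 30 TPM in at least 1 library, labelled by length and by span along the longest coding transcript; the axis is logarithmic above 1 and linear below. Control 2A (open diamond) is at or near 0 for the Col3a1 spans of 34% to 41% and 39% to 51%. It is at 0 for the Col4a1 spans of 5% to 12% and 15% to 50%, the latter also at 0 in control 1A. For the Col3a1 span of 49% to 78% control 2A reaches 309.9 TPM.

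Collagen chains need dedicated enzymes to fold, mature and cross-link, and 44 such genes and collagen receptors were read from lists by role. Of the 20 modifying enzymes and chaperones, 8 were higher, 3 lower and 9 not called, with a median log2 fold change of 0.39. Over all genes tested, 18.9% were higher and 22.5% lower. The largest rises were those of the lysyl hydroxylase Plod2 (0.87, adjusted p = 0.00421) and the prolyl 3-hydroxylases P3h3 (0.77, adjusted p = 0.0354) and P3h2 (0.66, adjusted p = 0.00763). The largest falls were those of the prolyl 4-hydroxylase subunit P4ha3 (-3.55, adjusted p = 0.00389), the collagen galactosyltransferase Colgalt2 (-2.40, adjusted p = 0.00114) and the cyclophilin Ppib (-0.59, adjusted p = 0.00628), which reversed when the length trend was removed. The call of P3h3 was lost under 10 of 24 alternatives. None of the 3 rises was called with the length trend removed. Plod2 was then at 0.43 (adjusted p = 0.0552), P3h3 at 0.60 (adjusted p = 0.0811) and P3h2 at 0.35 (adjusted p = 0.0999). Serpinh1, the collagen chaperone HSP47, was at 903, 882 and 1083 CPM in the VA-free mice and at 705 and 1143 CPM in the control mice and was not called (log2 fold change 0.05, adjusted p = 0.879).

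Among the procollagen proteinases and enhancers, 7 of 8 genes were tested, with 2 higher and 3 lower, where 18.9% of all genes were higher and 22.5% lower. Bmp1, the C-proteinase of fibrillar procollagens, was at 202, 229 and 226 CPM against 81.3 and 60.9 CPM (log2 fold change 1.63, standard error 0.16, adjusted p = 0.000529). The N-proteinase Adamts14 was also higher (1.26, adjusted p = 0.0167), but it missed the threshold in 7 of 24 alternatives, such as without control 2A (0.77, adjusted p = 0.125) and without 2B (2.01, adjusted p = 0.134). By contrast, Tll1 (-1.97, adjusted p = 0.0247), Adamts3 (-1.48, adjusted p = 0.0304) and the C-proteinase enhancer Pcolce (-1.09, adjusted p = 0.00364) were lower, with calls lost under 6, 10 and 2 of 24 alternatives. Of the 6 cross-linking enzymes only Pxdn passed, and it rose. Pxdn encodes peroxidasin, which forms the sulfilimine bonds of collagen IV, and was at 763, 599.6 and 714 CPM in the VA-free mice and at 236 and 198 CPM in the control mice (log2 fold change 1.67, standard error 0.16, adjusted p = 0.000481). The 5 lysyl oxidases ranged from -0.27 for Lox to 0.48 for Loxl1 and were not called.

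Of the 10 collagen receptors 9 were tested, and 3 were higher and 3 lower. Mrc2, the endocytic receptor that takes up collagen fragments, was at 254, 240 and 267 CPM in the VA-free mice and at 31.3 and 32.6 CPM in the control mice (log2 fold change 2.99, standard error 0.12, adjusted p = 0.000131). The discoidin domain receptors Ddr1 (1.59, adjusted p = 0.000327) and Ddr2 (0.51, adjusted p = 0.0127) were higher too. The Ddr2 call was lost under 6 of 24 alternatives, with the length trend removed among them (0.13, adjusted p = 0.41). Integrin chains Itga10 (-4.22, adjusted p = 0.00367) and Itga1 (-3.09, adjusted p = 0.000274) and the adhesion receptor Adgrg1 (-3.00, adjusted p = 0.00121) were lower. Itga1 was at 12.2, 9.17 and 8.56 CPM against 103 and 67.5 CPM. Endothelial markers, whose cells also carry this integrin, summed to 249.8 to 344 CPM in the VA-free libraries and 1333 to 2998 CPM in the control libraries, with 10 of 10 lower and none at 0, and their part in these receptors was not tested. Over the 4 lists, 14 genes were higher (33.33%) and 9 lower (21.43%) of 42 tested, against 18.9% and 22.5% of all genes, and 9 of these 23 calls held without control 2B. Among those that then missed the threshold, Pxdn and Ddr1 had larger folds (log2 fold change 2.24, adjusted p = 0.0525, and 2.30, adjusted p = 0.108), and Adgrg1 and Pcolce smaller ones (-2.64, adjusted p = 0.0715, and -0.87, adjusted p = 0.134).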

How the data were processed

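RNA of sorted Pax7-nTnG MuSCs was measured in 8 libraries, from 3 VA-free and 2 control mice. For each transcript of GRCm38 (Ensembl 96) the authors deposited estimated counts, unnormalized, which kallisto (0.46.2 per the submitters' processing notes) had obtained from 75 bp single-end reads. The authors also deposited TPM values, in which these estimates are divided by effective length and brought to 1 fixed total per library, so depth is lost.

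Transcripts were assigned to genes with the Ensembl 96 annotation (116816 of 118489 matched; 0.647% to 0.756% of the counts of a library had no gene and were left out). Estimated counts were added per gene and mouse and rounded, since technical replicates are not separate animals. Diet effects were tested by quasi-likelihood in edgeR 4.0.16 (R 4.3.3), with TMM factors and filterByExpr, and p-values were adjusted by Benjamini-Hochberg over the 17997 genes kept (threshold 0.05). Standard errors were obtained as the absolute log2 fold change over the root of F, and p-values measure the spread between 3 and 2 mice. The scripts were tested on simulated data. TPM ratios and levels are from means over the libraries of a mouse. They add all annotated transcripts of a gene, short partial ones included.

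The fit was repeated with other normalizations and filters, with DESeq2 1.42.0, with voom of limma 3.58.1, with other uses of the technical replicates, with corrections for length, with limma on log2(TPM + 1) or log2(TPM + 0.1), with mouse number as a block, and without each library or mouse in turn. The collagen chains were named by symbol, all of them, with full values for those past the threshold or with a mean of at least 10 CPM. Of each list of related genes up to 3 of the largest rises and 3 of the largest falls were named. Serpinh1, Lox and Loxl1 were named beyond this rule after their values were seen. The members, lists and tests were chosen with earlier results of these data known. Of the chains 13 share exonic bases with another gene, 2 of them (Col9a3 and Col4a3) over more than 5% of their exonic bases, and their reads cannot be fully told apart. Promoter windows came from RefSeq (GRCm38.p6).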

Additional observations from a re-analysis of the deposited data

Results flagged for a closer look

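Within each diet the 4 libraries of each tested chain were checked for a library whose gap to the nearest other exceeded the 95% critical value of Dixon's test for 4 values. This held in 8 of 84 groups of 4 libraries, where chance gives about 1 in 20, and libraries of one mouse share an animal. Control 2A was low for Col1a1, at 88.0 CPM with the other control libraries between 872 and 1279 CPM, and for Col28a1, at 2.77 CPM with the others between 7.62 and 9.0 CPM. VA-free 1B was high for Col1a2 at 178 CPM (others 144 to 148 CPM) and for Col15a1 at 119 CPM (others 100.1 to 101 CPM). VA-free 2A was high for Col5a3 at 1987 CPM (others 1880 to 1884 CPM) and for Col19a1 at 116 CPM (others 83.6 to 84.7 CPM), and low for Col26a1 at 51.8 CPM (others 69.9 to 73.0 CPM). VA-free 3A was high for Col7a1 at 5.53 CPM (others 2.72 to 2.97 CPM).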

How the results depend on the processing

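Of the 29 called chains, 10 kept their call and direction under all 24 alternatives (Col5a1, Col5a2, Col5a3, Col27a1, Col4a1, Col4a2, Col6a1, Col16a1, Col19a1 and Col13a1). Leaving out a mouse or library gave 10 to 21 chains higher and 1 to 12 lower, with both lowest counts without control 2B, where 18 calls were lost. With 1 library per mouse (control 2B among those unused) 14 chains were higher and 2 lower, and 13 calls were lost. Over all genes 12.94% were higher and 17.74% lower in that fit. Of the called chains 2 reversed: Col12a1 (-0.053 with the length offset) and Col8a1 (-0.12 with the length trend removed). Of the 13 chains not called, 8 reversed under an alternative. On the log2 scale, Col1a1 was -0.83 and called lower with the length trend removed, 0.57 with 1 library per mouse, 0.23 with TPM at either pseudocount and -0.67 to 0.25 without single mice or libraries. Col11a2 was 0.33 with 1 library per mouse or the offset, 0.23 and 0.47 with TPM at pseudocounts of 1 and 0.1, and -0.74 to 0.36 in the leave-outs. Col4a4 was 0.084 with 1 library per mouse, 0.046 and 0.14 with TPM, 0.021 with the replicate block, and -0.27 to 0.17 in the leave-outs. Col24a1 was 0.00038 with 1 library per mouse, and Col15a1 -0.32 with the length trend removed and -0.18 to 0.73 in the leave-outs. Leave-outs gave -0.81 to 0.46 for Col4a3, -0.34 to 1.84 for Col9a3 and -1.26 to 0.012 for Col25a1. The cause of these changes was not tested. With TPM, 32.22% (pseudocount 1) or 32.6% (0.1) of all genes were higher and 14.65% or 14.62% lower, with all genes shifted by 0.19 or 0.35. The replicate block gave 18 chains higher and 11 lower, with 13% of all genes higher and 16.13% lower. Mouse numbers 1 and 2 occur on both diets, and nothing states that equal numbers mark paired animals, so the samples were not treated as paired. The paper used littermate controls where possible, without naming pairs. The correlation of deviations was -0.0654 for mice 1 and 0.0103 for mice 2. With 2 control mice their deviations mirror each other, so these values cannot settle pairing. Chains under 1 CPM rest on few counts.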
